A study of Homo sapiens with 6 samples.

Results

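NF2 was targeted by 45 of the 7873 shRNAs of a pooled lentiviral library that was applied to HUH7 cells, an established human hepatocellular carcinoma line. The members are the shRNAs that the library lists against NM_ or XM_ transcripts with the gene symbol NF2, and they are spread evenly over 9 listed transcripts with 5 shRNAs each. The input library is the plasmid pool sequenced before virus was made. The selected libraries come from genomic DNA of cells that went onto puromycin 2 days after infection, stayed on it for 4 days and were then kept for 4 weeks. There were 3 libraries of each kind, with 2323330 to 2612829 counts per input library and 1525256 to 4013368 per selected library. The study compared the final cells with the input to find transcripts that the cells need, and the input is a plasmid pool, so that packaging, infection, puromycin and growth all lie between the groups and cannot be told apart. NF2 was chosen for description with this contrast already known, so all differences below are given as descriptions. P-values serve only as limits for sorting the shRNAs, and the p-value of no single shRNA is printed. The counts are those of DNA cassettes, and NF2 RNA or protein was not measured in them.

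NF2 encodes merlin, a protein of the FERM family that links membrane receptors to the actin cytoskeleton. Merlin restrains growth at cell contacts, in part by feeding the Hippo kinase cascade (MST and LATS kinases), which keeps the coactivators YAP and TAZ out of the nucleus. Loss of NF2 underlies schwannomas and meningiomas, and in the mouse liver it leads to overgrowth and to hepatocellular and bile duct tumours. Each shRNA carries a guide strand complementary to 21 bases of its target, and bases 2 to 8 of the guide form the seed, the part that pairs first and that can also silence other transcripts. Of 21 Hippo pathway genes considered, NF2 was the only 1 that the library targets as a protein-coding gene, and ezrin, radixin and moesin, the closest relatives of merlin, were not targeted (0 of 3).

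Some of the shRNAs that changed between input and selected cells carry the following targets, written 5′ to 3′ on the plus strand of the gene with target bases 14 to 20, which pair with the guide seed, in capitals. The first 3 are among those that fell past the thresholds used here, the next had the lowest input abundance and the highest ratio of selected to input of the tested NF2 shRNAs, and the last 4 are among those that rose by less than the fold limit.
NM_181832.2 shRNA 5: ctgaccatggtggTTTCATTa
NM_000268.3 shRNA 5: tccttccagtttgGCTGTTAt
NM_181833.2 shRNA 4: acctccacgtccgGCTAATTt
NM_000268.3 shRNA 3: atttgtcttccttTGTCTAAt
NM_181833.2 shRNA 5: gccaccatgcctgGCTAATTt
NM_181833.2 shRNA 1: tttcacttcttggCCAAATTt
NM_181828.2 shRNA 4: caatgaactcaagACAGAAAt
NM_016418.5 shRNA 4: gtatcagatgactCCGGAAAt

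All 45 targets matched NF2 exactly and on its own strand in GENCODE release 44 mapped to GRCh37, where the gene's 15 transcripts lie on chromosome 22 between 29999545 and 30094587. Coding sequence held 26 of the targets, in transcripts whose number ranged from 1 to 15 per target. Another 14 lay in the 3′ UTR of exon 16 of the canonical transcript ENST00000338641, the last of its 16 exons, and these were found in 4 to 7 of the 15 transcripts. The 5 targets listed for NM_181825.2 lay in another last exon that ends the mRNA earlier, in the 3′ UTR of ENST00000403999 alone. The listed transcript therefore seldom marks an isoform, since most coding targets are shared by 11 or more transcripts. 35 targets matched a single place in the genome and 7 matched none because they cross an exon junction. The other 3, all in the 3′ UTR of exon 16, matched 2 places (NM_181833.2 shRNA 4), 693 places (NM_181832.2 shRNA 3) and 26216 places (NM_181833.2 shRNA 5). The last of these also matched transcripts of 331 other genes in the same orientation, and NM_181832.2 shRNA 3 those of 16.

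Most NF2 shRNAs kept a representation in the selected HUH7 cells near that in the input, with a few clear falls and smaller rises among them. Of the 45 shRNAs, 41 reached a mean count of 10 and were tested in the fit over all 7232 shRNAs that did so. Each log2(fold change) sets the input above the selected cells, as the study did, and positive values are falls during selection. Where this ratio reached 0.75 with an adjusted p-value no higher than 0.05 in edgeR, 4 NF2 shRNAs were lower after selection (9.76%, beside 6.83% of all tested shRNAs). By the mirror image of this rule, 0 NF2 shRNAs were higher (5.85% of all tested shRNAs were). At an unadjusted p under 0.05 and past the fold limit, 4 were lower (8.03% of all tested shRNAs) and 1 was higher (6.58% of all) in edgeR, and DESeq2 with adjusted p-values called 3 lower and 0 higher. Without a limit on the fold change, 10 were lower (15.4% of all) and 6 were higher (17.4% of all), and 25 passed in neither direction. With input replicate 1, 2 or 3 left out, the shRNAs that passed without the fold limit numbered 4, 5 and 5 lower and 1, 2 and 1 higher. For DESeq2 and for the left-out libraries, the shares over all tested shRNAs are not given here, so those counts have no background beside them. Because NF2 was chosen with this contrast known, nothing is read from these counts and shares.

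The middle of the NF2 shRNAs lay close to that of the library. Their median log2(fold change) was 0.11, beside -0.01 over all tested shRNAs, 0.04 over 484 shRNAs against other protein-coding genes and -0.09 over 43 against reporter and resistance genes. Single shRNAs ranged from -1.03 to 1.31, with 24 positive and 17 negative values, beside 49.0% positive and 51.0% negative over all tested shRNAs. The median stood at -0.10, 0.12 and 0.18 when selected replicates 1, 2 and 3 were each set against the mean of the input libraries, so its sign was not shared by the selected libraries. Without selected replicate 3 it was -0.02.

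As a pool, the NF2 shRNAs made up 0.715%, 0.718% and 0.721% of the counts of the input libraries and 0.696%, 0.672% and 0.657% of those of the selected libraries. By these shares of raw counts the selected libraries all lay below the input libraries, with means of 0.718% ± 0.00322 and 0.675% ± 0.0201 (SD, n = 3). The TMM scaling factors were 1.012 to 1.013 in the input and 0.976, 0.992 and 0.995 in the selected libraries. After division by these factors, selected replicate 1 would no longer lie below the input libraries. Shares of other sets of shRNAs are not given here. The selected libraries lay wholly below the input libraries for 13 of the 41 shRNAs (25.6% of all tested shRNAs) and wholly above them for 10 (25.6%), while for 18 the groups overlapped. The coefficient of variation between libraries had a median of 4.55% in the input and 16.6% in the selected cells over the NF2 shRNAs. Over all tested shRNAs the medians were 5.42% and 17.5%, so the larger spread after selection was not particular to NF2.

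The clearest falls were found in the 3′ UTR of exon 16. NM_181832.2 shRNA 5, with its target at chr22:30093936-30093956, had 497, 509 and 496 normalized counts in the input libraries and 253, 190.0 and 213 in the selected cells. These groups are far apart, with means of 501 ± 7.58 and 219 ± 32.0 (SD, n = 3). The level was 2.31-fold lower after selection, or 1.21 as log2(fold change), with a standard error of 0.13. NM_000268.3 shRNA 5, at chr22:30092389-30092409, had 239, 229 and 237 normalized counts in the input and 135, 113 and 79.0 in the selected cells. All selected libraries again lay below the input, and the log2(fold change) was 1.14, with 0.21 as its standard error. Both targets match only this place in the genome, and both calls held under all 15 alternative settings, among them each library left out in turn.

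NM_181833.2 shRNA 4, at chr22:30093705-30093725 in the same UTR, had 432, 447 and 476 normalized counts in the input and 246, 209 and 283 in the selected cells, a log2(fold change) of 0.87 (standard error 0.14). Its call also held under the 15 settings, but its target matches 1 more place in the genome, and 8 other shRNAs of the library have a target within 3 mismatches of it. The remaining call, in coding sequence, is not described singly here. It was called in 6 of 14 alternatives. Among the settings where it lost its call were both DESeq2 fits of all 6 libraries, each input library left out, and selected replicate 3 left out.

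6 further shRNAs were lower by less than the fold limit. NM_000268.3 shRNA 2, in the 3′ UTR of exon 16 at chr22:30090965-30090985, went from a mean of 285 ± 6.27 in the input down to 183 ± 28.7 normalized counts (SD, n = 3). Its log2(fold change) was 0.64 (standard error 0.16). NM_181825.2 shRNA 3, in the alternative last exon at chr22:30079433-30079453, was even between libraries, with 623, 612 and 615 normalized counts in the input and 393, 411 and 409.8 in the selected cells (0.60, standard error 0.09). The coding targets NM_181829.2 shRNA 3 in exon 10 (0.58), NM_181830.2 shRNA 2 across the junction of exons 8 and 9 (0.39) and NM_181831.2 shRNA 1 in exon 1 (0.23), and NM_181832.2 shRNA 3 in the 3′ UTR (0.48), complete this group. The target of NM_181832.2 shRNA 3 matches 693 places in the genome, and 6 library shRNAs against other genes have a target within 3 mismatches of it. NM_181831.2 shRNA 1 targets all 15 transcripts, with 1060.2, 1029 and 1073 normalized counts in the input and 950.3, 868 and 886 in the selected cells. Its selected libraries all lay below its input libraries, by a log2(fold change) of 0.23 (standard error 0.07). Of the 6 NF2 shRNAs of this group, NM_181825.2 shRNA 3 alone passed without the fold limit under all 15 settings.

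The 6 shRNAs that rose without reaching the fold limit were mostly in coding sequence, as were 24 of the 41 tested NF2 shRNAs. NM_181829.2 shRNA 1, which crosses the junction of exon 2 to the exon that is exon 4 of the canonical transcript, had 377, 410.4 and 383 normalized counts in the input and 765, 498 and 621 in the selected cells, a log2(fold change) of -0.68 (standard error 0.15). This is the largest rise that passed, 1.60-fold, and without selected replicate 2 it reached the fold limit (-0.82). NM_181833.2 shRNA 1 in exon 3 (-0.44), NM_181828.2 shRNA 4 in exon 15 (-0.36) and NM_016418.5 shRNA 4 in exon 6 (-0.35) were also higher. Another, NM_181833.2 shRNA 5 in the 3′ UTR of exon 16, had 312, 331 and 346 normalized counts in the input and 426, 432 and 519 in the selected cells (-0.48, standard error 0.12). Its target is the one that matches 26216 places in the genome, and 12 other shRNAs of the library differ from it at no more than 1 base. Whether reads were exchanged with them was not tested.

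NM_000268.3 shRNA 3, at chr22:30091034-30091054, had the most negative value, -1.03, and did not pass the test. It had 24.3, 19.3 and 27.9 normalized counts in the input and 37.7, 34.1 and 73.0 in the selected cells, so that selected replicate 3 stands above the others. The groups did not overlap, but the standard error was 0.41. It was called higher without selected replicate 1 (-1.18), without selected replicate 2 (-1.26) and with group weights in limma voom (-1.05).

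Sorted by where the targets lie, the 12 tested shRNAs against the 3′ UTR of exon 16 had a median log2(fold change) of 0.33 (range -1.03 to 1.21), with 5 lower and 1 higher without the fold limit. The 24 tested shRNAs against coding sequence had a median of -0.03 (range -0.68 to 1.31), with 4 lower and 5 higher. The 5 against the alternative last exon had a median of 0.26 (range -0.09 to 0.60), with 1 lower and 0 higher without the fold limit in edgeR. Their median input abundance was 325, 391 and 249.8 normalized counts, lowest for the alternative last exon. Over all tested shRNAs, 15.4% were lower and 17.4% were higher by the same rule, and nothing is read from the counts by region. This grouping was made after the values were seen and the difference was not tested.

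Among the listed transcripts the medians ran from -0.30 for NM_016418.5, whose targets all lie in coding sequence, to 0.44 for NM_181832.2, whose targets all lie in the 3′ UTR of exon 16. The 5 shRNAs of NM_181831.2 had the closest values, from 0.18 to 0.30. The standard errors of NM_181831.2 shRNA 3, shRNA 4 and shRNA 5 were 0.23, 0.28 and 0.29, so this closeness is not a precise likeness. The 4 tested shRNAs of NM_000268.3 were the most spread, from -1.03 to 1.14, although 3 of them lie in the same UTR. For NM_016418.5, NM_016418.5 shRNA 3 had -0.49 (standard error 0.17) and NM_016418.5 shRNA 2 had 0.00 (standard error 0.12).

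Some targets that nearly touch had unlike values, and others had like ones. NM_181831.2 shRNA 1 and NM_181831.2 shRNA 2, whose targets adjoin in exon 1, both had 0.23. NM_000268.3 shRNA 5, which fell with 1.14, lies 4 bases before NM_181832.2 shRNA 1 at chr22:30092414-30092434, which had 543, 564 and 559 normalized counts in the input and 625, 642 and 548 in the selected cells (-0.12, standard error 0.10). NM_181829.2 shRNA 2, with -0.06 (standard error 0.15), overlaps the target of NM_181829.2 shRNA 3 by 2 bases, and the latter had 0.58 (standard error 0.15). The differences between neighbours were not tested.

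The library holds 3 NF2 shRNAs with the same seed and nearly the same guide. They arise because different upstream exons are spliced to the same exon, and they are shown to compare how shRNAs with a shared seed and a shared gene behaved.
NM_181831.2 shRNA 2: gcgaggtaaagaaGCAGATTt
NM_181828.2 shRNA 3: tacaggtaaagaaGCAGATTt
NM_181829.2 shRNA 1: agaaggtaaagaaGCAGATTt

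The last 18 bases of these targets are identical and only the first 3 differ, so that the guides differ only at their 3′ ends. They end in the same 16 bases of exon 4 of the canonical transcript, at chr22:30038191-30038206, and take their first 5 bases from exon 1 at chr22:30000097-30000101 (NM_181831.2 shRNA 2, in 3 transcripts), exon 3 at chr22:30035197-30035201 (NM_181828.2 shRNA 3, in 11) and exon 2 at chr22:30032861-30032865 (NM_181829.2 shRNA 1, in 1). NM_181831.2 shRNA 2 had 324, 368 and 382 normalized counts in the input and 271, 306 and 336 in the selected cells, with groups that overlap (0.23, standard error 0.13). NM_181828.2 shRNA 3 had 204, 216 and 243 in the input and 249.7, 262 and 189.5 in the selected cells, also with overlap (-0.07, standard error 0.17). NM_181829.2 shRNA 1, given above, had -0.68 (standard error 0.15). The 3 values therefore spanned 0.90 on the log2 scale, and the differences between them were not tested. How many mismatches the alignment to the library allowed is not given in the sources used here, and the exchange of reads between these 3 shRNAs was not tested.

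A second seed is shared by NM_181833.2 shRNA 4, which fell (0.87), and NM_181833.2 shRNA 5, which rose (-0.48). Their targets, shown above, both end in the bases GCTAATTt and differ at 5 of 21 positions. This pair moved in opposite directions with the same seed and the same listed transcript.

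Seeds were then followed into the rest of the library, which the choice of NF2 did not use. The 45 NF2 shRNAs carry 42 different seeds, and 253 shRNAs against other targets share 1 of them. Of the 235 that were tested, 23 were lower (9.79%) and 2 were higher (0.85%) past the thresholds, beside 6.83% and 5.85% of all tested shRNAs. The higher share depended on how the seed was defined. It was 3.62% of 607 shRNAs with a 6-base seed, 2.35% of 298 with the guide starting 1 base later in the target and 1.46% of 137 with it starting 1 base earlier. The lower share was 9.39%, 12.8% and 11.7% in these settings. The seed of NM_181833.2 shRNA 4 and shRNA 5 alone accounts for 93 of these. Among them 14 were lower (15.1%) and 0 higher in edgeR, and their median log2(fold change) was 0.20. Without this seed, 9 of 142 were lower (6.34%) and 2 were higher (1.41%). These shRNAs are not independent, since 56 shRNAs of the library have a target within 3 mismatches of that of NM_181833.2 shRNA 5, and the shares were not tested.

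For the seeds of the other shRNAs that fell, the values differed from seed to seed. The seed of NM_181832.2 shRNA 5 was carried by 5 tested shRNAs against other transcripts, of which 1 was lower and 4 had positive values (median 0.55, range -0.16 to 1.82). The seed of NM_000268.3 shRNA 5 was carried by 2, with -0.25 and 1.24, and neither was called. Among the shRNAs lower by less than the fold limit, NM_000268.3 shRNA 2 shared its seed with 5 tested shRNAs against other transcripts. Of these, 1 was lower and 4 had negative values (median -0.24, range -0.79 to 0.83). The seed of NM_181829.2 shRNA 3 was carried by 13, of which 1 was lower, with 8 positive and 5 negative values (median 0.01). For the seed common to the 3 junction shRNAs, 8 tested shRNAs against other transcripts ranged from -0.20 to 0.68, and 0 were called in either direction in edgeR.

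A guide with the seed of a natural microRNA can act on the targets of that microRNA. Of the 42 seeds, 5 equal bases 2 to 8 of a mature human microRNA of RefSeq (GRCh38.p14), and 4 of the 5 are described here. The microRNA that shares its seed with NM_000268.3 shRNA 2, which was lower, is shown with the seed in capitals.
hsa-miR-216b-5p: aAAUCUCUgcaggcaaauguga

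The value of NM_000268.3 shRNA 2, given above, was 0.64, while the 5 other tested shRNAs with its seed had a median of -0.24. NM_181830.2 shRNA 2 (0.39), NM_181825.2 shRNA 1 (-0.09) and NM_016418.5 shRNA 1 (-0.15) share theirs with hsa-miR-633, hsa-miR-3976 and hsa-miR-3133. A shared seed is a match of letters only, and the levels of these microRNAs in HUH7 cells were not measured here.

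Base composition and abundance followed the values of the NF2 shRNAs only weakly. The targets had a median GC content of 42.9% (28.6% to 52.4%), beside 47.6% over the library. Across the 41 tested NF2 shRNAs, GC content and log2(fold change) correlated at Pearson's r = 0.20 and Spearman's rho = 0.16, and input abundance on the log2 scale at -0.01 and -0.02. Over all 7232 tested shRNAs the correlation with GC content had the opposite sign, with r = -0.09 and rho = -0.10. These are descriptions across shRNAs of 1 gene that share their libraries.

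4 NF2 shRNAs were too rare to be tested. NM_181833.2 shRNA 2 and NM_181830.2 shRNA 1 each had 0 counts in the input libraries, a number that allows up to 3 of the 7490646 input counts, and 1 count in selected replicate 2. NM_000268.3 shRNA 4 had 12, 6 and 7 counts in the input and 15, 2 and 0 in the selected libraries. NM_181832.2 shRNA 4 had 14, 10 and 11 counts and then 0, 1 and 21. In these last pairs the selected libraries went both ways, so no direction can be given. The reads carry no molecular identifiers, and the limit covers counting error only.

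At the other end, NM_181830.2 shRNA 5, in exon 15 at chr22:30077567-30077587, was the most abundant shRNA in the input. It had 2399.7, 2476 and 2483 normalized counts there and 2104, 2411 and 2298 in the selected cells, with groups that overlap and a log2(fold change) of 0.11 (standard error 0.06). It did not pass the test.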

How the data were processed

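Counts per shRNA were deposited for 3 input and 3 selected libraries. Per the labels and the study's methods, the authors used cutadapt 1.4.2 for trimming, BWA 0.7.10 for alignment against the shRNA library and SAMtools 1.3 for counting. The deposited counts are raw and not normalized, and 0 columns of samples were left out. The labels do not say whether libraries of a group came from separate cultures, so p-values reflect library-to-library spread alone, possibly technical. In variance, pairs of input libraries differed by 1.09 to 1.12 times counting error, and pairs of selected libraries by 10.8 to 11.9 times. The edgeR fit shares its estimate of spread between the groups. The even input libraries therefore lower the spread assumed for the selected cells, and the calls and standard errors may be too favourable. Every shRNA whose mean count reached 10 across the 6 libraries was fitted with edgeR 4.0.16 (quasi-likelihood F-test, TMM scaling, R 4.3.3), and p-values were adjusted by the method of Benjamini and Hochberg over all 7232. Normalized counts are counts divided by TMM-scaled library sizes and multiplied by the mean of these sizes. Standard errors were obtained by dividing the absolute log2(fold change) by the square root of the F statistic. The fit was tested on simulated data with the same spread in both groups, which cannot check the unequal spread described above. Alternatives used DESeq2 1.42.0 and limma 3.58.1, other scalings and filters, the replicate block and each library left out. Targets were matched without mismatches to GRCh37 and to GENCODE 44 transcripts, with Python 3.11.15. All NF2 shRNAs enter the counts and medians, 2 that passed are not reported singly here, and those named are the others that passed, the extremes, those with a shared seed or neighbouring target and those not tested. The members and the gene lists were chosen with earlier results of these data known.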

Additional observations from a re-analysis of the deposited data

How the results depend on the processing

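Over the 15 alternative settings, the number of NF2 shRNAs called lower, 4 with edgeR, stayed at 3 to 4, and each library left out in turn gave 3 to 4. The number called higher was 0 in all settings with the 6 libraries except limma voom with group weights (1), and 0 to 2 with 1 library left out. Without the fold limit, leaving out 1 library gave 1 to 8 higher and 4 to 13 lower, beside 6 and 10. The fewest came without an input replicate (1, 2 and 1 higher, and 4, 5 and 5 lower, without replicates 1, 2 and 3). Shares over all tested shRNAs in these settings are not given here. Of 612 values of single shRNAs under the alternatives, 600 stayed on the same side of the thresholds, 8 were no longer past them, 4 were newly past them and 0 that were called changed direction, while values of shRNAs that were not called could change sign. The 8 all belong to 1 rare shRNA against coding sequence. The share of other shRNAs with an NF2 seed that were higher was 3.62% with a 6-base seed, over 607 tested shRNAs, beside 0.851%. With the replicate number as a block, 3 shRNAs were lower and 0 higher past the fold limit, 8 lower and 5 higher without it, and the median was 0.12. The labels give no pairing of the libraries beyond the replicate number. Deviations from the group means correlated at -0.0077, 0.0058 and -0.0344 for the same number. Input libraries differed by little more than counting error, so these correlations could not show a pairing if there was one.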
